A study of Mus musculus with 6 samples.

Results

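The connexins of the epidermis examined here were Gja1, Gjb2, Gjb5 and Gjb6, which encode the proteins Cx43, Cx26, Cx31.1 and Cx30. They were found as the probes that carried these gene names on the array: 6 probes of 41115, for 4 genes of the 17773 tested. Gja1 and Gjb5 had 1 probe each, and Gjb2 and Gjb6 had 2 each. The mice were females of the inbred strain C57BL/6J, aged 6 to 8 weeks, and RNA was taken from whole skin of the back. In the imiquimod group the shaved back received 62.5 mg of a cream with 5% imiquimod every day for 7 days, and in the vehicle group the same amount of a cream without it. Imiquimod is an agonist of the receptor Tlr7, and in mice its repeated use inflames the skin in a way that resembles psoriasis. There were 3 samples in each group, hybridised to separate Agilent arrays in a single colour. Since no label assigns the samples to separate mice, the p-values rest on variation among samples that could be technical in part.

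Connexins are membrane proteins that assemble into hemichannels. Hemichannels of neighbouring cells dock into gap junctions, through which ions and small molecules pass from cell to cell. Keratinocytes make several connexins in layer-specific patterns, and Cx26 and Cx30 are known to be scarce in resting interfollicular epidermis and abundant in hyperproliferative epidermis, in wound edges and in hair follicles. Cx43 is the most widespread of the family and is also made by fibroblasts, endothelium and smooth muscle. In human, mutations of GJB2 and GJB6 are known causes of inherited deafness and of skin disorders.

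The records gave the treatment of the arrays in more than 1 way. In 6 of 6 scanner files, the treatment word in the file's name was the opposite of that in the title of the sample holding the file. In 6 of 6 columns, the value table read by sample title matched the scanner file that carried the same treatment word and number, with Spearman correlations of at least 0.99999973 over 24253 probes. With the file a sample was filed with, the correlation was 0.943 to 0.953. Arrays are therefore grouped by the word in the file's name, and differences are given in log2 as imiquimod minus vehicle. Grouped as the files were filed, every difference below has the opposite sign. Under the grouping used, Krt6b, a keratin of wounded epidermis, was 5.41 higher in imiquimod skin (SE 0.33, limma adjusted p = 0.00142). Lcn2, an antimicrobial iron-binding protein, was higher by 4.46 (SE 0.34, limma adjusted p = 0.00178). Krt71, a keratin of the inner root sheath of hair, differed by -12.01 (SE 0.82, limma adjusted p = 0.00161), and was well above background on 2 of 3 imiquimod arrays and 3 of 3 vehicle arrays.

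Levels are log2 processed signals minus the array's 75th percentile, which lay between 861 and 1106 signal units, so a level of 0 is as bright as that percentile. A level of one probe cannot be set against that of another. Signals well above background were found for 61.2% to 67.4% of an array's probes, and for all 6 connexin probes on 6 of 6 arrays, none of them saturated. In limma, 4192 of 17773 genes passed at an adjusted p under 0.05, which is 23.6%, with 13.1% higher and 10.5% lower in imiquimod skin. The groups did not overlap in 46.6% of genes. Arrays correlated at 0.992 within the imiquimod group, at 0.960 to 0.983 within the vehicle group and at 0.942 to 0.954 between groups (Pearson, across probes, which are not independent replicates). The vehicle group had the larger SD in 69.6% of genes. Vehicle arrays 2 and 3 were set to evaluate by the extraction software and had net negative control signals of 40.9 and 45.2, against 31.7 to 37.6 on the other arrays. Slide 1 held imiquimod array 1 and all vehicle arrays, and slide 2 held imiquimod arrays 2 and 3.

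Of the 4 connexins, Gjb6 rose in imiquimod skin, Gjb5 fell, and Gjb2 and Gja1 did not pass the test. Thus 2 of 4 passed, beside 23.6% of all genes, and in 3 of 4 the groups did not overlap, beside 46.6%. Of those, 2 were higher in imiquimod skin, beside 25.9% of genes, and 1 was lower, beside 20.7%. On average Gjb6 was 7.11-fold higher and Gjb5 3.06-fold lower in imiquimod skin. After scaling, Gjb2 stood higher on every imiquimod array than on any vehicle array, and its vehicle arrays were widely spread. Before scaling, vehicle array 2 was slightly brighter than imiquimod array 3 for both of its probes. In whole skin, a change in the number of cells of a type cannot be told apart from a change in RNA per cell.

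**Figure D1:**
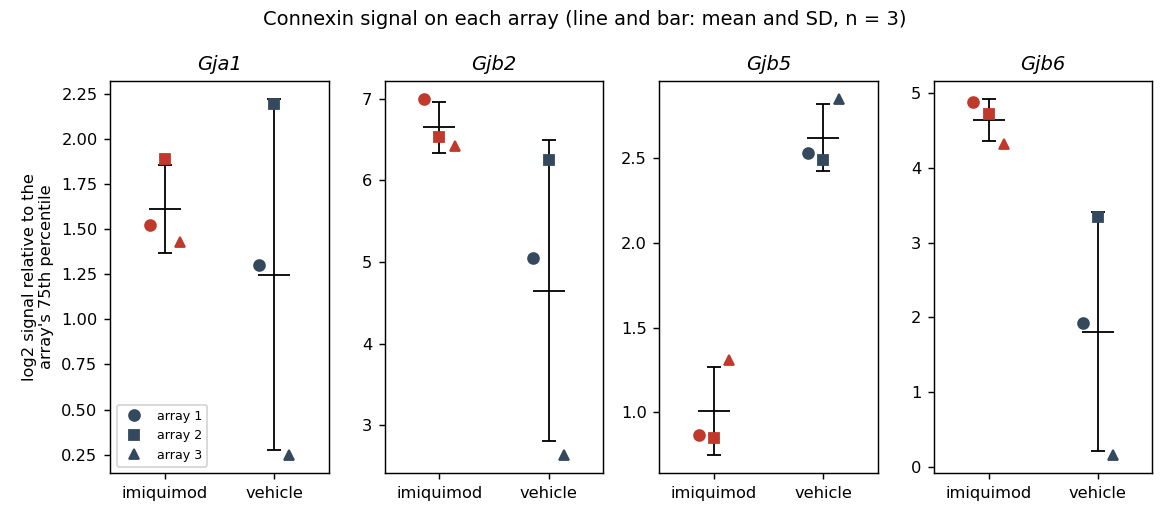
Signal of the 4 connexins on each array, on the y axis as log2 signal relative to the array's 75th percentile, with a separate scale in each panel; symbols mark the array number, and lines with bars the mean and SD of 3 arrays. Gjb2 and Gjb6 lay above all vehicle arrays on all imiquimod arrays, Gjb5 lay below them, Gja1 overlapped, and vehicle array 3 was the lowest array for Gja1, Gjb2 and Gjb6.

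Gjb6 encodes Cx30, a beta connexin that forms mixed channels with Cx26. Its brighter probe stood at 4.87, 4.72 and 4.32 on imiquimod arrays 1, 2 and 3, against 1.92, 3.35 and 0.16 on vehicle arrays 1, 2 and 3. All imiquimod arrays lay above all vehicle arrays, and the vehicle arrays spanned a 9.12-fold range while the imiquimod arrays spanned 1.47-fold. The means were 4.64 ± 0.28 in imiquimod skin and 1.81 ± 1.60 in vehicle skin (SD, n = 3 each). The difference was 2.83 (SE 0.77, 95% interval 0.94 to 4.72, limma adjusted p = 0.0467). The interval and p-value assume an equal variance in both groups, although the SDs were 0.28 and 1.60. A fit with unequal variances was not run. The call lies close to the threshold: it was lost without any 1 of imiquimod arrays 1, 2 and 3 or without vehicle array 1 (adjusted p = 0.137, 0.126, 0.109 and 0.122, differences 2.71 to 2.99). With slide as a block, the difference was 3.07 (adjusted p = 0.192), and within slide 1 it was also 3.07 (adjusted p = 0.316).

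Gjb2 encodes Cx26, the smallest of the 4 proteins. Its brighter probe stood at 7.00, 6.53 and 6.42 on imiquimod arrays 1, 2 and 3, against 5.05, 6.25 and 2.63 on vehicle arrays 1, 2 and 3. At these scaled levels the groups did not overlap, but vehicle array 2 came close to imiquimod array 3. Before scaling the groups overlapped, with a processed signal of 80789.5 on vehicle array 2 against 80145 on imiquimod array 3. The means were 6.65 ± 0.31 in imiquimod skin and 4.65 ± 1.84 in vehicle skin (SD, n = 3 each). The difference was 2.00, a 4.01-fold change (SE 0.89, 95% interval -0.17 to 4.18), and did not pass (limma adjusted p = 0.153). The vehicle arrays spanned a 12.3-fold range for Gjb2, and its SD there was larger than that of 99.0% of tested genes. For Gjb6 that share was 98.7%, for Gja1 95.7% and for Gjb5 42.8%. Without vehicle array 2, Gjb2 passed at 2.81 (adjusted p = 0.0446), and without vehicle array 3 its difference was 1.00 (adjusted p = 0.129). With slide as a block or within slide 1, it was 2.35 (adjusted p = 0.344 and 0.469).

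The remaining probe of Gjb2 and of Gjb6 lies nearer the 5′ end of the transcript. Both are shown because they measured the same pattern from sequences with little in common. The Gjb2 probe lies in mm9 at chr14:57719067-57719126 and the Gjb6 probe at chr14:57743017-57743076, both on the minus strand, and no exon annotation of that build was used here.
Gjb2 probe: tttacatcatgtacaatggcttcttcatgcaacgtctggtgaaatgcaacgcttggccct
Gjb6 probe: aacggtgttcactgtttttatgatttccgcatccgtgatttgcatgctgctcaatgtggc
The longest run of identical bases shared by any pair of the 6 connexin probes, on either strand, was 7 of 60 bases. For Gjb2, this probe stood at 1.75, 1.18 and 0.85 on imiquimod arrays 1, 2 and 3, against -0.76, 0.77 and -3.43 on vehicle arrays 1, 2 and 3. Its difference of 2.40 did not pass either (SE 1.02, adjusted p = 0.142 in a limma fit across probes). For Gjb6, it stood at 2.30, 2.21 and 1.56 on imiquimod arrays 1, 2 and 3, against -0.82, 0.63 and -2.67 on vehicle arrays 1, 2 and 3. The difference was 2.97 (SE 0.80, adjusted p = 0.0464 in the limma fit across probes). After each probe was centred on its mean, the probes of a gene were never further apart on an array than 0.48 for Gjb2 and 0.18 for Gjb6. The low level of vehicle array 3 and the high level of vehicle array 2 thus appeared in both probes of both genes.

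Gja1 encodes Cx43, an alpha connexin. Its probe lies in mm9 at chromosome 10 from 56109814 to 56109873 on the plus strand, and was printed as 10 spots on each array. Gja1 stood at 1.52, 1.89 and 1.43 on imiquimod arrays 1, 2 and 3, against 1.30, 2.19 and 0.25 on vehicle arrays 1, 2 and 3. The groups overlapped, since the imiquimod arrays all lay between vehicle arrays 1 and 2. The means were 1.61 ± 0.24 in imiquimod skin and 1.25 ± 0.97 in vehicle skin (SD, n = 3 each). The difference of 0.37 did not pass (SE 0.48, 95% interval -0.82 to 1.55, limma adjusted p = 0.616). Within an array its 10 spots had an SD of 0.073 to 0.17, which measures the precision of that array's value and not the variation between samples. Without vehicle array 3 the difference was -0.13 (adjusted p = 0.776), and without vehicle array 2 it was 0.84 (adjusted p = 0.132). It was 0.28 with slide as a block or within slide 1 (adjusted p = 0.850 and 0.880).

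Gjb5 encodes Cx31.1, a beta connexin of stratified epithelia that in mouse is also known from the placenta. Gjb5 stood at 0.87, 0.85 and 1.31 on imiquimod arrays 1, 2 and 3, against 2.53, 2.49 and 2.85 on vehicle arrays 1, 2 and 3. The groups were far apart and both were narrow, with a 1.37-fold range in imiquimod skin and 1.29-fold in vehicle skin. The means were 1.01 ± 0.26 in imiquimod skin and 2.62 ± 0.20 in vehicle skin (SD, n = 3 each). The difference was -1.61 (SE 0.18, 95% interval -2.05 to -1.17, limma adjusted p = 0.00400). The call held without each of the 6 arrays in turn and with slide as a block (-1.75, adjusted p = 0.0344). Within slide 1 the difference was -1.75 and the call was lost (adjusted p = 0.0892, 1 imiquimod array against 3 vehicle arrays).

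**Figure D2:**
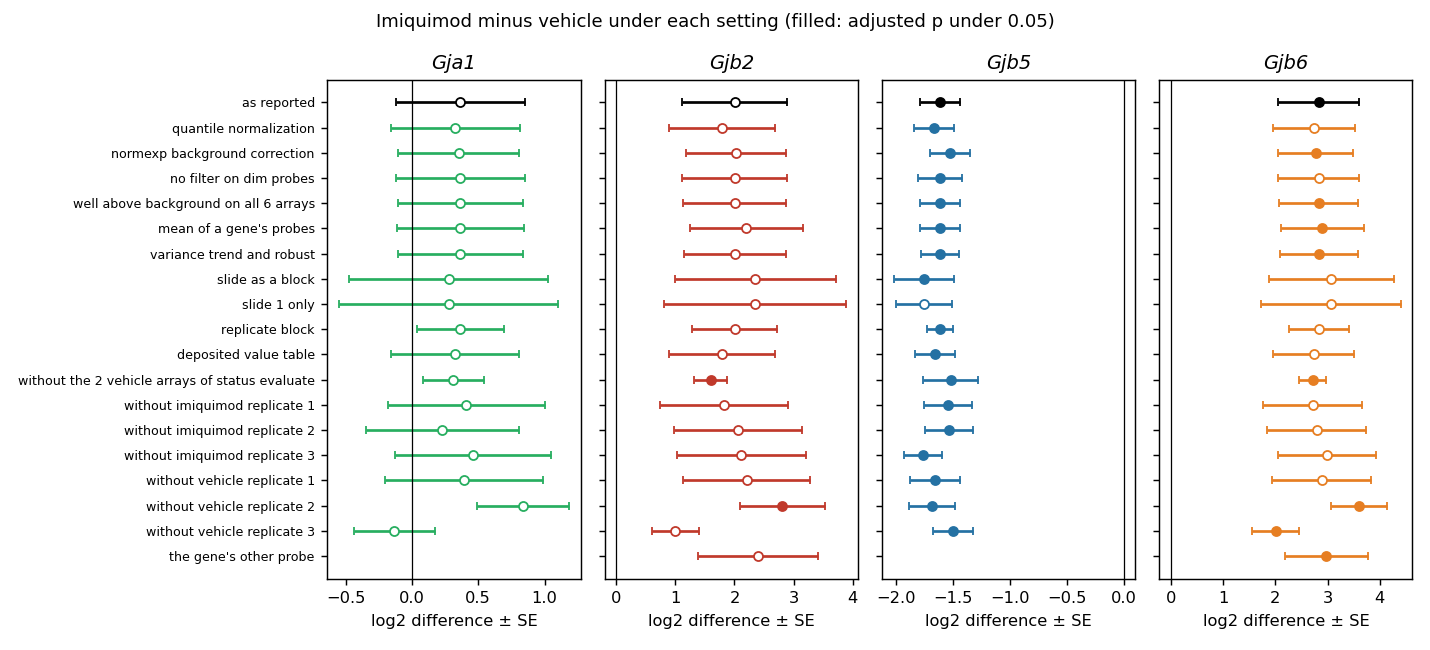
Log2 difference between imiquimod and vehicle skin (x axis, ± SE from limma) for each connexin under each processing setting (y axis); filled points passed at an adjusted p under 0.05, black points are the values as reported, and the grouping as filed, which turns each sign, is not drawn. Gjb5 stayed between -1.76 and -1.50, Gjb6 between 2.01 and 3.60 with some settings on either side of the threshold, and Gja1 crossed 0 without vehicle replicate 3.

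Pairs of connexins were compared by their log2 difference within each array, which says nothing of their relative abundance. Each gene was read from its brighter or only probe. For Gjb6 and Gjb5, Gjb5 minus Gjb6 ran from -4.01 to -3.01 on imiquimod arrays, against -0.86 to 2.69 on vehicle arrays. For Gjb2 minus Gjb6, the values were 1.81 to 2.13 on imiquimod arrays, against 2.48 to 3.13 on vehicle arrays. With these probes the ratio differed by -0.83 between the groups. With the remaining probe of both genes, the groups overlapped. There, Gjb2 lay further below Gjb6 on vehicle array 3 (-3.43 and -2.67) than on imiquimod array 1 (1.75 and 2.30). The change in this ratio thus depended on the probe. In all 6 pairs, read from the brighter or only probes, the imiquimod and vehicle arrays did not overlap. The exact two-sided permutation p was 0.1 in each (adjusted p = 0.1 over the 6 pairs). This is the smallest that 3 against 3 arrays allow. Hence none can pass a threshold of 0.05. The 6 pairs are made from 4 genes, so they are not independent. The share of pairs without overlap among genes at large was not determined, and 46.6% of single genes had groups without overlap. As a description over 6 arrays, which fall into 2 groups, Gjb2 and Gjb6 were the most alike of the pairs, with a root mean square distance of 0.47 between mean-centred profiles, and Gjb5 and Gjb6 the least alike, at 2.47.

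Gja1, Gjb2 and Gjb6 also shared the order of the vehicle arrays, with array 2 highest and array 3 lowest, an order found in 24.5% of all tested genes and not in Gjb5. Several marker lists had the same order, in each of their tested genes: 5 of 5 hair shaft genes, 5 of 5 inner root sheath genes and 4 of 4 melanocyte genes. Other lists of the follicle and epidermis had it less often. It was found in 3 of 6 bulge and outer root sheath genes and 0 of 4 sebocyte genes. Among keratinocyte genes it was found in 0 of 6 basal, 0 of 8 suprabasal and 1 of 9 activated ones. The summed level of the hair shaft list (linear signal as multiples of the 75th percentile) was 0.14 to 0.28 on imiquimod arrays, against 133, 440 and 8.81 on vehicle arrays 1, 2 and 3. For the inner root sheath list it was 3.57 to 5.37 on imiquimod arrays, against 694, 1159 and 120 on vehicle arrays 1, 2 and 3. For the melanocyte list it was 12.8 to 16.3 on imiquimod arrays, against 65.9, 110 and 12.0 on vehicle arrays 1, 2 and 3. The hair shaft and inner root sheath sums were lower on every imiquimod array than on any vehicle array, while the melanocyte sum was lowest on vehicle array 3. Of the 10 hair shaft and inner root sheath genes tested, Krt25, Krt34, Krt85 and Krt86 were well above background on 0 imiquimod arrays, and Krt25 was at least 2363-fold lower in imiquimod skin (limma adjusted p = 0.00203; a bound on group means, against the lowest signal well above background on each dim array). The part of hair follicle content in the connexin values was not tested.

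**Figure D3:**
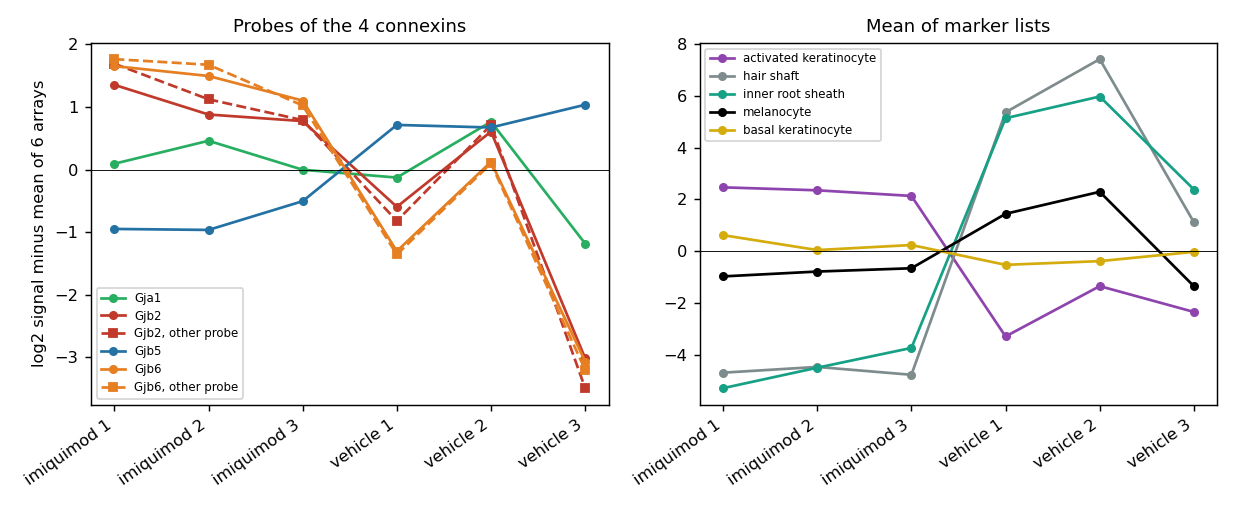
Mean-centred log2 signal (y axis) on each of the 6 arrays (x axis), on the left for the 6 connexin probes and on the right as the mean of 5 marker lists; lines join arrays only to guide the eye. On the left, both probes of Gjb2 and of Gjb6 were lowest on vehicle array 3 and stood highest on the imiquimod arrays. On the right, the hair shaft and inner root sheath lists were low on all imiquimod arrays and highest on vehicle array 2.

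Lists of keratinocyte genes are set beside the connexins. They were read in RNA of whole skin, so their levels need not come from the epidermis alone. The counts of each list stand beside 13.1% of all genes called higher and 10.5% called lower. Of 9 tested genes of activated keratinocytes, 8 rose, and the summed level was 1696 to 1992 on imiquimod arrays, against 190 to 374 on vehicle arrays. Of 6 basal keratinocyte genes, 3 rose, led by Krt14, the basal keratin, with a difference of 2.25 (SE 0.15, limma adjusted p = 0.00155), and their summed level was 852 to 1032 on imiquimod arrays, against 343 to 441 on vehicle arrays. Of 8 tested suprabasal genes, 2 rose, among them Krt1, a keratin of differentiating layers, at 1.71 (SE 0.26, limma adjusted p = 0.00957). None of these 3 lists had a lower gene that passed. Krt14 and Krt1, defining keratins of epidermis, were well above background on 6 of 6 arrays. Other cell types shifted as well: 4 of 4 neutrophil genes and 3 of 5 macrophage genes rose, and the summed level of the neutrophil list was 8.77 to 17.8 on imiquimod arrays, against 0.376 to 1.76 on vehicle arrays. Of cell types known to make Cx43, 4 of 6 fibroblast genes and 3 of 5 endothelial genes rose. Of 5 smooth muscle genes, 1 rose and 1 fell. Among the remaining lists, 0 of 5 skeletal muscle genes passed in limma, of which 0 had an unadjusted p under 0.05, beside 39% of all genes. In addition, 4 of 6 bulge and outer root sheath genes and 3 of 4 sebocyte genes fell, and 4 of 5 mast cell genes rose. Of 5 adipocyte genes 1 fell, and 0 of 4 T cell genes and 0 of 4 melanocyte genes passed. The part of these cells in the connexin values was not tested.

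The members lie in different places in the genome. By the mm9 positions of the array, the brighter probes of Gjb2 (chromosome 14 from 57717629 to 57717688) and Gjb6 (chromosome 14 from 57742226 to 57742285) are 24.6 kb apart on the minus strand. The nearest tested genes outside this pair did not pass: Zmym2, a zinc finger protein, differed by -0.05 (adjusted p = 0.791) and Cryl1, lambda-crystallin, by -0.54 (adjusted p = 0.197). Without vehicle array 3, Cryl1 passed at -0.81 (adjusted p = 0.0324). Gja3, a lens connexin of the same neighbourhood, was too dim to test, with 0 imiquimod and 2 vehicle arrays well above background. Gjb5 (chromosome 4 from 127032665 to 127032724, minus strand) has Zscan20, a zinc finger protein, as a tested neighbour, which differed by -0.11 (adjusted p = 0.724). On its other side, 43.8 kb away on the same strand, lies the probe of Gja4, which was higher in imiquimod skin, with a difference of 1.59 (limma adjusted p = 0.00810) against -1.61 for Gjb5. Beside Gja1, neither Msl3l2 (0.30, adjusted p = 0.0950) nor Serinc1 (0.0015, adjusted p = 0.996) passed.

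Of 12 other connexins reported here, 5 were bright enough to test, of which 2 rose and 3 did not pass. Over all genes 13.1% were called higher and 10.5% lower. Their median difference was 1.03, beside 0.023 over all genes. Not every connexin is reported, so these counts do not describe the family. Gja4, Cx37 of the endothelium, stood at 0.83, 0.36 and 1.05 on imiquimod arrays 1, 2 and 3, against -0.80, -1.13 and -0.57 on vehicle arrays 1, 2 and 3. The groups did not overlap, and Gja4 rose by 1.59 (SE 0.23, limma adjusted p = 0.00810), though with a slide term it did not pass (1.67, adjusted p = 0.0666). Gjc1, Cx45, rose by 1.03 (SE 0.14, limma adjusted p = 0.00694), but did not pass in the fit with a slide term (adjusted p = 0.0552). Gja5, Cx40 of vascular and heart cells, differed by 1.03 (SE 0.60, adjusted p = 0.253), with vehicle array 2 far above the other vehicle arrays. It stood at -1.35, -1.99 and -1.69 on imiquimod arrays 1, 2 and 3, against -3.55, -1.32 and -3.25 on vehicle arrays 1, 2 and 3. Without vehicle array 2 it passed, at 1.72 (adjusted p = 0.00929). Gjd3 differed by 1.12 (adjusted p = 0.0856), by 0.51 with normexp correction and by 0.70 without imiquimod array 3, and passed without imiquimod array 2, at 1.49 (adjusted p = 0.0458). The difference of Gjb1, Cx32, was 0.47 (adjusted p = 0.270), with 2 imiquimod arrays and 1 vehicle array well above background. The remaining 7, Gja3, Gja6, Gja10, Gjc3, Gjd2, Gjd4 and Gje1, were too dim to test. The median depended on the treatment of dim probes: it was 0.19 with no filter on dim probes and 0.69 with normexp background correction.

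**Figure D4:**
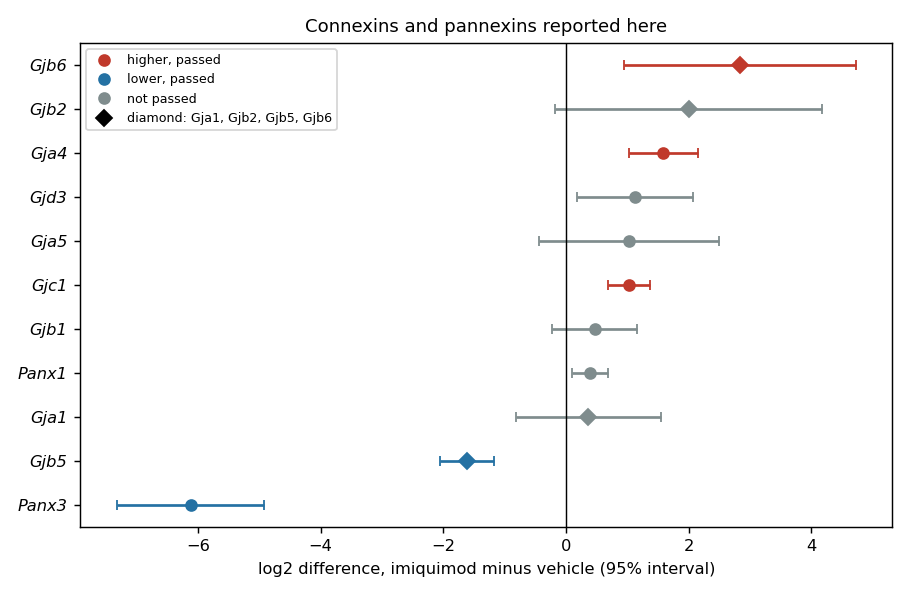
Log2 difference between imiquimod and vehicle skin (x axis) for 9 connexins and 2 pannexins, with 95% intervals from limma; red and blue mark genes higher and lower at an adjusted p under 0.05, and diamonds mark Gja1, Gjb2, Gjb5 and Gjb6. The intervals of Gjb2 and Gja1 cross 0, and those of Gjb5 and Panx3 lie below it.

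Pannexins are channel proteins that do not normally form gap junctions. Panx3 fell, with a difference of -6.12 (SE 0.49, limma adjusted p = 0.00198), at -6.79, -6.14 and -5.23 on imiquimod arrays 1, 2 and 3, against 0.10, -0.61 and 0.70 on vehicle arrays 1, 2 and 3. It was well above background on 1 of 3 imiquimod arrays, so the size rests partly on background. Panx1, the widespread pannexin, differed by 0.39 (SE 0.12, adjusted p = 0.0647), and by 0.85 as the mean of its probes (adjusted p = 0.108). It passed without vehicle array 2 (0.47, adjusted p = 0.0407), with normexp correction (adjusted p = 0.0463) and with a variance trend (adjusted p = 0.0415). With normexp correction the difference of Panx3 was -3.63 (adjusted p = 0.00136).

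Partner genes encode proteins that bind, traffic or phosphorylate connexins. Of 26 tested, 1 rose, 2 fell and 23 did not pass, with a median of -0.015. Over all genes 23.6% were called (13.1% higher and 10.5% lower). With slide as a block, 0 of the 26 were called higher and 1 lower (limma adjusted p under 0.05). Ocln, occludin of tight junctions, fell, with a difference of -2.09 (SE 0.27, limma adjusted p = 0.00572). Erp29, a chaperone known to hold Cx43 monomers in the endoplasmic reticulum, rose by 0.50 (SE 0.094, limma adjusted p = 0.0169). The call was lost without any 1 of imiquimod arrays 1, 2 and 3 or vehicle array 1 (adjusted p = 0.0617 to 0.0723), with a slide term (adjusted p = 0.135) and with quantile normalization (0.28, adjusted p = 0.0858). Prkce, a protein kinase C, fell, with a difference of -0.45 (SE 0.11, limma adjusted p = 0.0320), and lost its call without any 1 of imiquimod arrays 1, 2 and 3 or vehicle arrays 1 and 2 (adjusted p = 0.0546 to 0.115). Vcl, vinculin, differed by 0.54 and did not pass (adjusted p = 0.0579), but did so without vehicle array 2 (0.65, adjusted p = 0.0418). Tjp1, the scaffold ZO-1 that binds the tail of Cx43, differed by 0.11 (SE 0.28, adjusted p = 0.807).

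Genes whose profile lay closest to that of each connexin were found by the root mean square distance between mean-centred log2 values over the 6 arrays, as a description with no test. For Gjb5 they were Hspb8 (0.12), Tex19.1 (0.12) and Cables1 (0.12). For Gjb6 they were Slc15a2 (0.30), Pla2g4b (0.32) and Fhl2 (0.34). For Gjb2 they were Slc15a2 (0.27), Lrat (0.32) and Steap1 (0.40), so Slc15a2, a peptide transporter, came first for both. Slc15a2 stood at -0.35, -0.61 and -0.88 on imiquimod arrays 1, 2 and 3, against -2.65, -1.56 and -4.46 on vehicle arrays 1, 2 and 3. For Gja1 they were Lurap1l (0.13), Fut4 (0.16) and Proser2 (0.16). The Pearson correlations of these genes with their connexin over the 6 arrays were 0.968 to 0.997.

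The 250 bases before the start of each gene are shown because Gjb2 and Gjb6 varied together from array to array and Gjb5 ran the other way. They are RefSeq sequences of GRCm38.p6, and 4 of 4 genes matched the table. Capitals mark matches, on either strand, to 6 short motifs. The AP-1 letters are TGANTCA, where N is any base. The letters taken for the box of high GC content, to which Sp1 is known to bind, were GGGCGG in this search. The CACCC box is named for its letters. The letters taken for a core promoter box of the TATA kind were TATAAA on either strand. The NF-kappaB letters used are GGGA and CC with any 4 bases between them, and the STAT letters are TTC and GAA with any 3 bases between them. Neighbouring matches can overlap, and then run together.
Gjb6, chr14:57133612-57133861, minus strand: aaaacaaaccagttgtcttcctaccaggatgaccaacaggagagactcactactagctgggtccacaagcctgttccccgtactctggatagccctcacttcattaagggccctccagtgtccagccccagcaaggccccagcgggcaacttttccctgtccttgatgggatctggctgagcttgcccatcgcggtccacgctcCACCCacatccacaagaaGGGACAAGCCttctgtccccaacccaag
Gjb2, chr14:57104703-57104952, minus strand: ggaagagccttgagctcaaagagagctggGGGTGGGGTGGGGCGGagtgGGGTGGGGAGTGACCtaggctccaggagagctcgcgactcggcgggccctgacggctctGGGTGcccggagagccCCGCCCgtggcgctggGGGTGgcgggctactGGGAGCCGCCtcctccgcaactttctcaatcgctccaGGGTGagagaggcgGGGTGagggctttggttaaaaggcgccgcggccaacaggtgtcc
Gja1, chr10:56377050-56377299, plus strand: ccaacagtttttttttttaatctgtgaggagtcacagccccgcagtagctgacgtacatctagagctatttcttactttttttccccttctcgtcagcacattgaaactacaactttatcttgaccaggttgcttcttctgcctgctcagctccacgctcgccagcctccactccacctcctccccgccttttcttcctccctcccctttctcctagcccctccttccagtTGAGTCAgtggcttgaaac
Gjb5, chr4:127358165-127358414, minus strand: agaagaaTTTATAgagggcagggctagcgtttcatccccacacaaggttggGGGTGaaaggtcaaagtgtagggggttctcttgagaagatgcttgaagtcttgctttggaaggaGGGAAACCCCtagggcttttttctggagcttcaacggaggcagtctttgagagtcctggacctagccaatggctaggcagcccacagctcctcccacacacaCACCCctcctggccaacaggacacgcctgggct
The Gjb2 window held 2 GC boxes, a motif present in 33.0% of 32544 promoter windows of the same length, and the Gjb6 window held 0. Its GC content was 69.2%, against 56.8% for Gjb6, 54.4% for Gjb5, 50% for Gja1 and a median of 52.4% over all windows. The NF-kappaB letters stood in the windows of Gjb2 (2 matches), Gjb5 (1) and Gjb6 (1), beside 17.7% of all windows. The AP-1 letters stood once in the Gja1 window, from base 19 before the start, beside 6.73% of all windows. The CACCC letters occurred 7 times for Gjb2, 2 times for Gjb5 and 1 time for Gjb6, and in 52.1% of all windows. The STAT letters were in 0 of the 4 windows and 7.04% of all, and the TATAAA letters in the Gjb5 window (1 match, 243 bases before the start) and 12.3% of all. A match of letters is a description and shows no binding.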

How the data were processed

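RNA of whole back skin was hybridised to 6 single-colour Agilent mouse arrays. The intensity values are the authors' processed signals from Agilent Feature Extraction 10.7.3.1, per the file headers, background-corrected there and not scaled between arrays; version 9.1 is the one named in the submitters' processing notes. Deposited beside them is a table of the authors' values, which holds log2 values whose between-array normalization is not given in the sources used here; its column medians were 7.05, and its direction was set by matching columns to scanner files.

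Control spots and 322 outlier spots were left out and spots of a probe averaged. Log2 signals were taken relative to each array's 75th percentile. Probes well above background on at least 3 of 6 arrays were tested, and each gene was read from its brightest tested probe. The comparison used limma 3.58.1 (R 4.3.3) over all 17773 genes, with Benjamini-Hochberg adjustment and a threshold of 0.05. It took the variance of a gene as equal in both groups. The procedure was also run on simulated data, whose noise was equal in both groups. That run does not cover the unequal spread of these data, where the vehicle SD was the larger in 69.6% of genes. Precision is limited by having few arrays. In all, 27737 probes were named by accession and 5982 by symbol from RefSeq; the rest kept the file's name. Il36a was read under its symbol there, Il1f6.

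Some connexin genes are not reported here, and the list of other connexins was shortened by them after its values were known. Named genes are the remaining connexins and pannexins tested, the 4 partner genes of smallest p, leading genes of marker lists, the 3 closest profiles of each connexin and the nearest tested genes. Tjp1, Gja3, Krt85 and Krt86 were named after their values were seen. The members and lists were chosen with earlier results of these data known. Alternatives covered quantile normalization, normexp correction with an offset of 50, filters on dim probes, the choice of probe, the variance model, slide, replicate number, the value table and leaving out arrays.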

Additional observations from a re-analysis of the deposited data

How the results depend on the processing

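Gjb5 kept its direction and its call under every alternative run except 2: within slide 1 it was -1.75 (adjusted p = 0.0892), and with arrays grouped as filed it was 1.61. Leaving out each array in turn gave -1.76 to -1.50. Gjb6 kept its direction except as filed (-2.83), but lost its call with quantile normalization (2.74, adjusted p = 0.0542), when dim probes were kept (2.83, adjusted p = 0.0747), with slide as a block or within slide 1 (3.07 in both) and in the value table (2.73, adjusted p = 0.0534); leaving out each array gave 2.01 to 3.60. Gjb2 passed without both vehicle arrays of status evaluate (1.60, adjusted p = 0.0334, leaving 1 vehicle array assumed to vary like the others), was -2.00 as filed, and gave 1.00 to 2.81 without each array. Gja1 was -0.37 as filed and -0.13 to 0.84 without each array, with -0.13 when vehicle array 3 was left out. The cause of these changes was not tested, except that grouping as filed turns every sign by construction.

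Over all tested genes, same-numbered arrays deviated from their group means with correlations of -0.087, 0.068 and 0.085. Arrays of different number were not compared in this way, so whether the numbers pair the samples was not settled. With replicate number as a block, the SE was 0.33 for Gja1, 0.72 for Gjb2, 0.12 for Gjb5 and 0.58 for Gjb6. Without it, the SE was 0.48, 0.89, 0.18 and 0.77 in the same order. With the replicate block, Gjb6 was 2.83 (adjusted p = 0.0553), Gjb5 -1.61 (adjusted p = 0.0165), and 2212 genes passed. The number of genes passing was 1063 with slide as a block, 8 within slide 1, and 1687 to 4668 without each array. The median of the other connexins reported was 0.69 with normexp, 0.19 with no filter and 0.99 to 1.19 without each array. The partner median was -0.076 with quantile normalization, -0.075 in the value table, -0.064 without the arrays of status evaluate and -0.032 to 0.056 without each array, with 0.056 when vehicle array 2 was left out. Probes near background, such as Gjb1 and Panx3 in imiquimod skin, give only a limited measure of a level. Genes near 0 changed sign with the setting, none of them called: Serinc1 was -0.075 with quantile normalization, -0.036 with normexp, -0.021 with slide as a block or within slide 1, -0.074 in the value table, -0.027 without the arrays of status evaluate and -0.14 to 0.13 without each array. Tjp1 was -0.019 as the mean of its probes and -0.057 to 0.35 without each array, Zmym2 -0.12 to 0.017 and Zscan20 -0.28 to 0.081 without each array. Within slide 1, Krt6b, Lcn2, Krt71, Krt25, Krt14, Krt1, Ocln and Panx3 kept their direction and were not called (adjusted p = 0.0629 to 0.190), and Krt1 was also not called with slide as a block (adjusted p = 0.0840).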
